A study of Mus musculus with 19 samples.

Results

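The tumours described here were 14 colon tumours of mice, 1 per mouse, out of 19 libraries in the series. They were grouped by the level of genes that mark the distal colon, measured in the same libraries, into 6 high and 8 low tumours. The grouping was chosen by those measured values. It is not a treatment or a class given by the study. The genes used for it were not named, so every gene of a list of distal colon genes and of a list of posterior Hox genes counts as used and is described without a test. Every tumour carried a deletion of 1 allele of Apc, a tumour suppressor that restrains Wnt signalling, made with Villin-Cre, a recombinase active in the epithelium of the gut. Apc tumours carried that deletion alone. Apc/Tgif tumours were labelled as also lacking both alleles of Tgif1 and of Tgif2, a pair of homeodomain repressors, again through Villin-Cre, so that other cells of the tumour kept these genes. In each genotype 3 tumours were high and 4 were low. High tumours came from 2 female and 4 male mice and low tumours from 4 females and 4 males, all 12 weeks old. Colon of 5 wild-type mice of the same age is given for reference and entered no test. The labels do not say where along the colon a tumour lay.

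The colon is patterned from front to back by Hox genes, which encode homeodomain transcription factors and lie in clusters. Genes at one end of a cluster are used anteriorly, and the genes at the other end, up to group 13, are used in the most posterior tissue. The HoxD cluster ends with Hoxd13, and Evx2, a related homeobox gene, lies just beyond it on the opposite strand. The large bowel also changes along its length in the hormones, ion channels and junction proteins of its epithelium, which is why such genes are used as regional marks.

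Values are normalized counts, which the authors scaled per library and which are not corrected for gene length. Differences are high minus low tumours on the log2(normalized count + 1) scale, with genotype and sex as terms in a fit across all genes by limma. A gene is called where the adjusted p is below 0.05. Library totals lay between 34853552 and 36786948 normalized counts in the high tumours and between 34417808 and 43474139 in the low tumours. The means differed by -1391931, with an exact two-sided permutation p of 0.315 over 1225 arrangements within genotype. One low library stood apart. In Apc/Tgif replicate 5 the ribosomal precursor Rn45s took 9.35% of the total, against 0.171% to 0.7% in the other 13 tumours. Results that rest on many genes are therefore also given without it. The first 5 principal components, with 27%, 19.7%, 12.1%, 9.65% and 7.26% of the variance, did not part the classes over all 14 tumours. The third came nearest. On it, high Apc/Tgif tumours lay at -31.11, -16.09 and -8.14, and low ones at -5.46, 54.32, -5.81 and 14.97, without overlap. High Apc tumours lay at 11.57, -34.44 and -62.91, and low ones at 10.98, 18.75, 33.85 and 19.52, with overlap.

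The genes deleted in the second genotype were not called between the classes. Tgif1 had 4964, 3225 and 2785 normalized counts in high and 3939, 4734, 3769 and 3287 in low Apc tumours. In tumours labelled Apc/Tgif it had 354, 251 and 319 in high and 316, 654, 313 and 269.9 in low tumours, below every Apc tumour. The class difference was -0.11 (95% interval -0.45 to 0.22). Tgif2 had 608, 690.0 and 476 in high and 598, 680.5, 681 and 764 in low Apc tumours, and 2329, 2141 and 2696 in high and 2492, 2958, 3107 and 2873 in low tumours labelled Apc/Tgif, where its total was higher rather than lower. The labels do not say which part of the gene was deleted, so its total does not check the label. The class difference of Tgif2 was -0.25 (SE 0.110, limma unadjusted p = 0.0391, limma adjusted p = 0.605). It was below 0 in each genotype.

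The label of the classes was first set against the genes it names. Of 12 listed genes of distal colon, 11 were in the table and are described here. The summed level of the list was 15558 to 28785 (median 23338) in the high tumours and 3839 to 10196 (median 8575) in the low tumours, so that a gap parted the highest low from the lowest high tumour. Wild-type colon had 29704 to 33763 (median 31439.5). The sum does not weigh the genes evenly. In Apc/Tgif tumours it was 20302 to 27127 in high and 9457 to 10196 in low tumours. Hoxd13 alone held 10089.8 to 11355 there in high and 17.7 to 239 in low tumours. Hoxb13, also large in the sum, overlapped there, with 6540 to 8720 and 7263 to 8079. Hoxd13 showed the widest gap of the listed genes. Hoxd13 had 6670.5, 7139.7 and 10232 normalized counts in the 3 high Apc tumours and 37.9, 7.68, 11.6 and 2.42 in the 4 low ones. In Apc/Tgif tumours it had 11355, 10491 and 10089.8 in the high and 83.7, 234, 17.7 and 239 in the low tumours. The classes were more than an order of magnitude apart in both genotypes, and the low Apc/Tgif tumours kept more Hoxd13 than most low Apc tumours. Wild-type colon, with 8441, 6282, 5463, 3548 and 6479.7, lay beside the high tumours.

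Listed distal genes outside HoxD followed the classes less evenly, and mainly in Apc tumours. Hoxb13, the group 13 gene of another cluster, had 5271, 9351 and 8753 normalized counts in high and 1542, 5469.7, 1088 and 1279 in low Apc tumours. In Apc/Tgif tumours it had 8720.3, 6540.4 and 7739 in high and 7263, 7291, 8079 and 7839.6 in low tumours, and the classes overlapped in both genotypes. The difference was 2.11 in Apc tumours and 0.0074 in Apc/Tgif tumours. Hoxa13, with 415 to 1091 (median 495) in high and 359 to 798 (median 600.4) in low tumours, overlapped throughout. Fxyd4, a regulator of the sodium pump, had 326, 844 and 1582 in high and 14.9, 224, 9.55 and 0.81 in low Apc tumours, without overlap, and differed by 5.81 there. Its Apc/Tgif classes overlapped and differed by 0.70. Insl5, a peptide hormone of distal enteroendocrine cells, differed by 1.90 and -0.88, with opposite signs. Cldn8, a tight junction protein, differed by 0.19 over both genotypes. Scnn1b and Scnn1g, subunits of the epithelial sodium channel, differed by 0.17 and 0.85. All 11 listed genes had a difference above 0, with a median of 1.06. In Apc tumours all 11 were above 0 (median 2.11), and in Apc/Tgif tumours 8 were (median 0.70). Of the 11, Hoxd10, Hoxd11, Hoxd12 and Hoxd13 were separated within each genotype, Hoxd12 only narrowly in Apc tumours, and the other 7 were not. In bulk tissue, fewer cells of a type and less RNA per cell cannot be told apart.

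Along the HoxD cluster the difference was large at the posterior end, Evx2 included, and small on the anterior side. The cluster lies on chromosome 2 of the mouse (GRCm38), and 28 annotated genes start within 250000 bases of the Hoxd13 start. Of these, 14 were in the table and 8 passed the filter on low values. Hoxd11 had 750.2 to 1834 (median 1202) normalized counts in high and 1.14 to 31.3 (median 7.9) in low tumours. Hoxd10 had 383 to 918 (median 533) and 0.74 to 16.1 (median 6.29). Both were separated over all 14 tumours. Hoxd12 was uneven among the high tumours, with 2.47, 2193 and 614 in the Apc and 1949, 157 and 15.1 in the Apc/Tgif genotype, against 0 to 5.37 (median 1.2) in low tumours. One high Apc tumour thus had Hoxd12 at the level of the low tumours while its Hoxd13 was high. Hoxd9, which starts 29417 bases past the Hoxd13 start, had 56.9 to 263 (median 121) in high and 2.56 to 31.4 (median 10.9) in low tumours, a difference of 3.40.

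The next gene, Hoxd8, starts 36305 bases past the Hoxd13 start and is not on the list of posterior genes. It had 36.3 to 118 (median 63.7) normalized counts in high and 13.8 to 68.1 (median 30.8) in low tumours, and the classes overlapped. Its difference of 0.99 did not pass the threshold (SE 0.342, limma adjusted p = 0.397). Mtx2, a mitochondrial gene that flanks the cluster at 157493 bases, had 1936 to 2330.0 (median 2050.2) and 1672 to 2435 (median 2024). Its difference was 0.054, with a 95% interval of -0.17 to 0.28. Hoxd4, Hoxd3 and Hoxd1 were too low for the filter, with 3.3 to 28.4 (median 10.1) normalized counts of Hoxd4 in high and 3.9 to 11.1 (median 6.36) in low tumours.

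**Figure D1:**
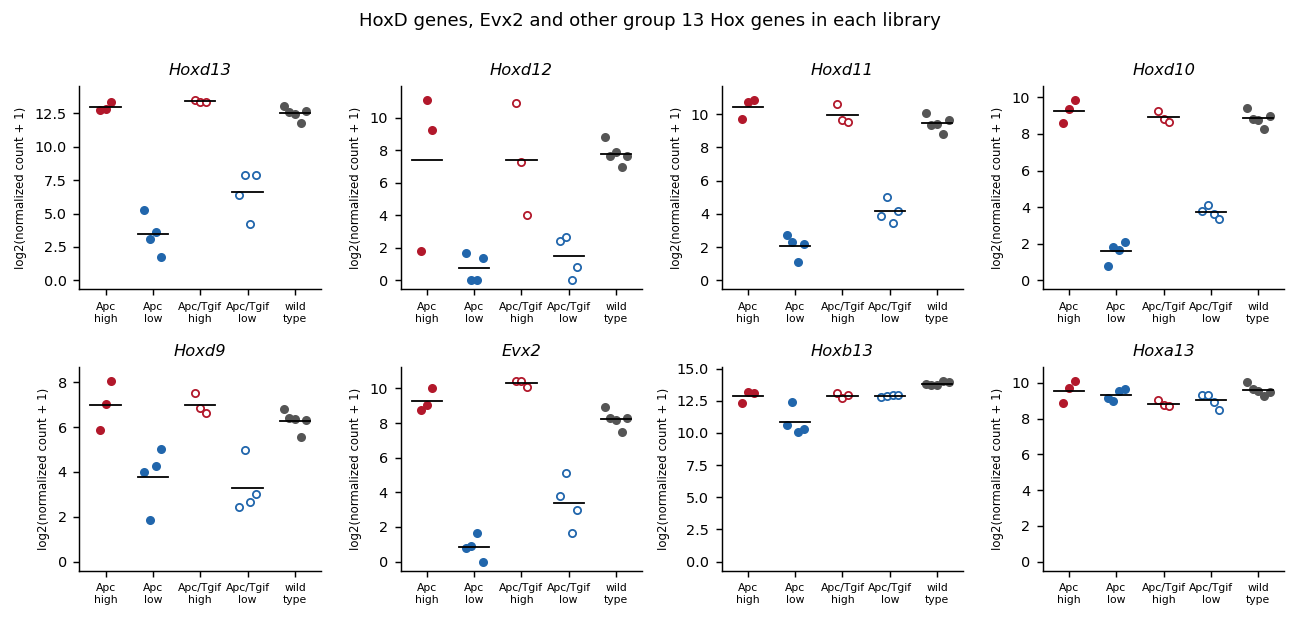
Level of 8 genes in each library, as log2(normalized count + 1), in high and low tumours of each genotype and in wild-type colon. Points are libraries and bars are means of log2 values. Hoxd10, Hoxd11, Hoxd13 and Evx2 part the high from the low tumours, Hoxd12 is uneven among the high tumours, and Hoxa13 overlaps.

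Evx2 (chromosome 2, 74652991 to 74659557, minus strand) was the gene with the largest difference outside the lists that made the classes. Its start lies at -8753 bases from that of Hoxd13, so it borders the genes that made the classes and is not independent of them. In Apc tumours it had 433, 537 and 1041 normalized counts in the 3 high and 0.74, 0.85, 2.11 and 0 in the 4 low tumours. Apc/Tgif tumours had 1368, 1353 and 1094 in high and 13, 33.6, 2.09 and 7.01 in low tumours. The highest low tumour lay far below the lowest high tumour. Wild-type colon had 482, 313, 291, 177 and 311. The difference was 7.78. Only 2 low tumours reached 10 normalized counts, so the gene passed the filter on low values through the high tumours, and its difference is given as a description.

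The start regions of Hoxd13 and Evx2 are shown because both genes move together across a short stretch, and that of Lix1 because it is the leading gene elsewhere in the genome. They are RefSeq sequences of GRCm38.p6, from 250 bases before to 50 after the RefSeq start, 5′ to 3′ on the gene's own strand. Capitals mark CAATAAA, the core to which group 13 Hox proteins are known to bind.
Hoxd13, chr2:74667975-74668274, plus strand: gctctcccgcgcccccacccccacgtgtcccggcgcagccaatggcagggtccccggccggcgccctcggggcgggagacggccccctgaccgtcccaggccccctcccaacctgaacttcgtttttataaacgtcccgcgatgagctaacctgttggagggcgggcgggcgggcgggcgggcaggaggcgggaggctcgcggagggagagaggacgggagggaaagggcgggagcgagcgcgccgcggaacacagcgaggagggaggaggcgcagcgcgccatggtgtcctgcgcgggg
Evx2, chr2:74659508-74659807, minus strand: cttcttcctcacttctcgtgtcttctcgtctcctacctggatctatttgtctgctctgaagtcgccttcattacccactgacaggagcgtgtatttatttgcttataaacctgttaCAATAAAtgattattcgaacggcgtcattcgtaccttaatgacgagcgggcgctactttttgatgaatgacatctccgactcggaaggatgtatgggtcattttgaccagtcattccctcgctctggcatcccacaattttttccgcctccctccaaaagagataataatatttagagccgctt
Lix1, chr17:17402436-17402735, plus strand: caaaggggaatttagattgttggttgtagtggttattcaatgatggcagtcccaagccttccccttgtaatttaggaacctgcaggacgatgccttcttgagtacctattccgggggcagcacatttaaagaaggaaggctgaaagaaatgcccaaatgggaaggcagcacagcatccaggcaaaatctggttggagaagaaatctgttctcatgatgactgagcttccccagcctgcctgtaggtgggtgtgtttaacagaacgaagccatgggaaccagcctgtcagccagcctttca
The Hoxd13 window holds 37 CpG dinucleotides, more than 94.4% of all windows, against 16 in that of Evx2 and 3 in that of Lix1. Searched on both strands, CAATAAA was in 1 of the 3, the window of Evx2, 134 bases before its start. It was in 4.6% of all 32851 windows and in 2.63% of the 15110 windows of tested genes. Among the 11 windows of HoxD genes and Evx2 it was in 2, and among the windows of the named genes below it was in 1 of 8 for higher genes, again Evx2, and in 0 of 9 for lower genes. A match is a description of the letters and not a binding site.

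**Figure D2:**
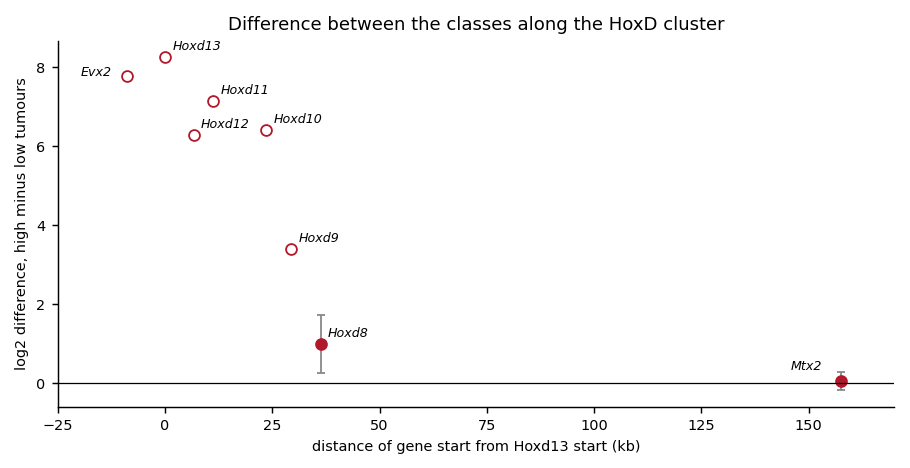
Log2 difference of high minus low tumours against the distance of each gene start from the Hoxd13 start in kb, for the 8 genes of the region that passed the filter. Open points are Evx2 and genes of the distal and posterior Hox lists, given without a test, and filled points are other genes, with bars for 95% intervals. The difference is 7.78 at Evx2, 3.40 at Hoxd9, 0.99 at Hoxd8 and 0.054 at Mtx2.

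Listed posterior Hox genes of other clusters did not share the order of the HoxD genes. Hoxa11 had 252, 346 and 328 normalized counts in high and 1404, 404, 1337 and 1709.5 in low Apc tumours. Apc/Tgif tumours had 309, 265 and 282 in high and 524, 774, 516 and 349 in low tumours. Every high tumour lay below every low tumour, the opposite order to Hoxd11, and wild-type colon had 218 to 259 (median 246). Hoxa10 differed by -0.43, Hoxa9 by -0.14 and Hoxb9 by -0.10. These genes are on the list of posterior genes and carry no test. Of 14 tested anterior Hox genes, 5 had a difference above 0 and none was called (median -0.19). At an unadjusted p below 0.05 by limma there were 7 of the 14, against 7.52% of all genes counted. The differences ran from -0.96 to 0.99. Hoxa5, in the middle of the HoxA cluster, had 455 to 744 (median 692) in high and 759.7 to 1389 (median 907) in low tumours. It was separated over all 14 tumours, and its difference of -0.57 missed the threshold (limma adjusted p = 0.139).

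Outside the lists that made the classes, 17656 genes were tested. High tumours were higher in 28 of them, 0.159%, and lower in 13, 0.0736%, together 41 or 0.232%. At an unadjusted p below 0.05 there were 1327 genes, 7.52%, of which 695 were higher and 632 lower. In both genotypes the same way, the classes were separated for 126 genes, 0.714%, and over all 14 tumours together for 37, 0.21%. Of the 41 called genes, 36 were separated in both genotypes and 14 over all tumours, and all 41 had the same sign in both genotypes. They were called by a fit over these same tumours, so this agreement follows largely from the calling. It is not a separate test in each genotype. The median difference over all 17656 genes was 0.0011, and 50.2% of them had a difference above 0. Few genes thus differed beyond the spread between tumours. Of the called genes, 5 higher and 3 lower passed the filter on low values through the class in which they are high and so had to differ. Among them were Evx2, Hs3st5, L3mbtl4 and Cnpy1 on the higher side and Pgc and Pdx1 on the lower side. Without Apc/Tgif replicate 5, 18 genes were higher and 4 lower. Of the 36 called genes with names other than predicted or clone names, 6 were called in each of the 14 fits that left out 1 tumour. These were Evx2, Lix1, Hs3st5, Scn2b, Fgfr2 and Bcl2l15. For Evx2 and Hs3st5, which passed the filter through the high tumours, this is a description and no mark of a stable call. At the other end, 13 of the 36 were called in under 5 of these fits. Of the genes named below, Krt15, Nxpe2 and Parp9 were each called in 13 of the 14 fits. The number was 12 for Hmga2, 10 for Dtx3l, 9 for Mogat2 and 6 for Parp14. It was 5 for Gsta3, B4galnt3, Gkn3, Pdx1 and Isl1, 4 for Sp110, Vegfc, Tpd52l1 and Ccnd2, and 3 for Bambi and Npy1r. It was 2 for Pgc and Mgst1, and 1 for Ociad2. Over the 36 genes, the left-out differences ran from 0.827 to 1.19 times the value with all tumours. Calls near the threshold were thus lost while sizes moved little in these fits. In other settings, such as 1 genotype alone, some sizes moved more. They ran from 1.59 to 3.25 for Krt15 and 1.37 to 3.19 for Isl1, but from 0.84 to 1.02 for Fgfr2.

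**Figure D3:**
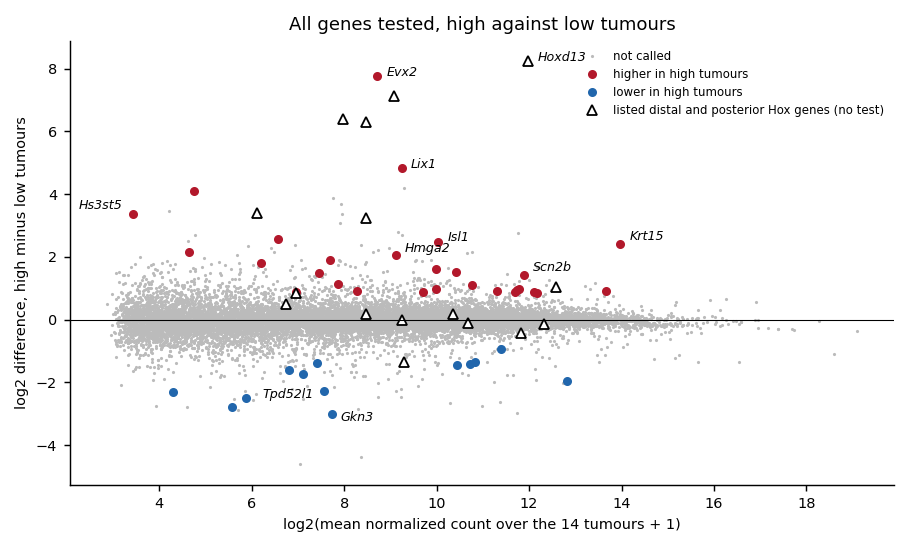
Log2 difference of high minus low tumours against log2(mean normalized count over the 14 tumours + 1) for all genes tested. Red and blue points are the 28 genes called higher and 13 called lower, and triangles are listed distal and posterior Hox genes, given without a test. Evx2 and Lix1 stand above the other called genes.

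Lix1 (chromosome 17, 17402672 to 17459387), a gene best known from limb development, had the largest called difference after Evx2. Its levels were 964, 1557 and 1789 normalized counts in high and 22.4, 81.1, 24.7 and 22.5 in low Apc tumours, and 1610.2, 1689 and 451 in high and 103, 57.5, 65.2 and 35.7 in low Apc/Tgif tumours. The classes did not overlap in any combination, and wild-type colon, with 572, 501, 169, 280.4 and 332, lay above all low tumours. It rose by 4.84 (SE 0.408, limma adjusted p = 4.59e-05). With each tumour left out in turn the difference ran from 4.65 to 5.14. Hs3st5, a heparan sulfate sulfotransferase, had 8.07 to 40.4 (median 17.4) in high and 0 to 2.15 (median 0.95) in low tumours. Its difference of 3.36 is a description only, since the gene passed the filter through the high tumours and no low tumour reached 10. It was named after its values were seen.

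Fgfr2, a receptor for fibroblast growth factors, had 2986, 4132 and 4366 normalized counts in high and 1765, 1915, 2259.6 and 1859 in low Apc tumours. In Apc/Tgif tumours the values were 6277, 5997 and 4554 in high and 3449, 2929, 2234 and 3094 in low tumours. The classes were separated within each genotype. It rose by 0.95 (SE 0.132, limma adjusted p = 0.00893). Vegfc, the growth factor of lymphatic vessels, had 206 to 527 (median 305) in high and 94.1 to 243 (median 151) in low tumours and rose by 1.13 (limma adjusted p = 0.0295). Bambi, a membrane protein that damps TGF-beta and BMP signalling, had 1714, 3959 and 2255 in high and 431, 1107, 461 and 560.4 in low Apc tumours. In Apc/Tgif tumours it had 2031, 1628 and 1457 in high and 908, 802, 736 and 1053 in low tumours, and the classes did not overlap over all 14. It rose by 1.52 (limma adjusted p = 0.0387) and was the only called member of a list of 37 TGF-beta and BMP genes, whose median was 0.012. Ccnd2, a D-type cyclin, had 12762 to 24146 (median 18319.6) in high and 7375 to 12199.9 (median 8928) in low tumours, again without overlap, and rose by 0.93 (limma adjusted p = 0.0392). Fgfr2 and Ccnd2 were chosen after their values were seen.

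Hmga2, a chromatin protein of embryonic and tumour tissue, had 706, 1724 and 667 normalized counts in high and 156, 269, 492 and 249 in low Apc tumours, and 1245, 854 and 683 in high and 113, 270.1, 128 and 221 in low Apc/Tgif tumours. All high tumours lay above all low ones, and wild-type colon had 653, 567, 589, 301 and 354. It rose by 2.06 (SE 0.319, limma adjusted p = 0.0155). Isl1, a LIM homeodomain factor used in some enteroendocrine cells, had 1347, 1862 and 2900.0 in high and 241, 587, 104 and 192 in low Apc tumours. Among Apc/Tgif tumours it had 2303, 1403 and 822 in high and 1141, 1324, 164 and 269.6 in low tumours, and there the classes overlapped. It rose by 2.46 (limma adjusted p = 0.0384). It was the only called member of 19 tested enteroendocrine genes, of which 11 had a difference above 0 (median 0.15). Pyy, the peptide hormone of distal enteroendocrine cells, had 944 to 12457 (median 6082) in high and 241 to 2496 (median 929) in low tumours. Its difference of 2.75 missed the threshold (limma adjusted p = 0.0986). Chga and Chgb, granins of all endocrine cells, differed by -0.04 and 0.30.

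Krt15, a keratin of basal cells of squamous epithelium, had 485, 1311 and 1098 normalized counts in high and 114, 98.2, 58 and 100 in low Apc tumours. Apc/Tgif tumours had far more, 74978, 35925 and 42832 in high and 15781, 8145, 20854 and 23092 in low tumours, and wild-type colon had 18.3 to 30.2 (median 24). The classes were separated within each genotype, and every low Apc/Tgif tumour lay above every high Apc tumour. It rose by 2.42 (SE 0.366, limma adjusted p = 0.0155). Of 15 tested keratins 11 had a difference above 0 (median 0.20), and Krt15 was the only one called. Of 13 squamous genes 10 were above 0 (median 0.71) and none was called. Without Apc/Tgif replicate 5 the median was 0.42. The summed level of the squamous list overlapped, with 9934 to 19009 (median 10868) in high and 7946 to 13349 (median 10823) in low tumours, and its part in the rise of Krt15 was not tested.

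Scn2b, a beta subunit of voltage-gated sodium channels, had 2031, 3063 and 1962 normalized counts in high and 748, 942, 891 and 489 in low Apc tumours. The Apc/Tgif values were 9588, 9420.1 and 8061 in high and 5197, 2835, 3874 and 4149.7 in low tumours. The classes were separated within each genotype, and it rose by 1.42 (SE 0.187, limma adjusted p = 0.00674). Npy1r, a receptor for neuropeptide Y and peptide YY, had 132 to 439 (median 281) in high and 59 to 157 (median 82.5) in low tumours and rose by 1.47 (limma adjusted p = 0.0436). Of 11 tested genes of enteric neurons and glia 6 were above 0 and none was called, with a summed level of 419.7 to 1642 in high and 401 to 2035 in low tumours. B4galnt3, a glycosyltransferase, had 710.4 to 2390.4 (median 1624) in high and 246 to 1111 (median 479.9) in low tumours and rose by 1.63 (limma adjusted p = 0.0295). Nxpe2 had 1194 to 3574 (median 2356) and 404 to 2434 (median 1101) and rose by 1.12 (limma adjusted p = 0.0155). Bcl2l15, a member of the BCL2 family, had 82.7 to 335 (median 173) and 10.8 to 53.9 (median 27.8), separated over all 14 tumours, and rose by 2.57 (limma adjusted p = 0.0122). It was named after its values were seen.

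**Figure D4:**
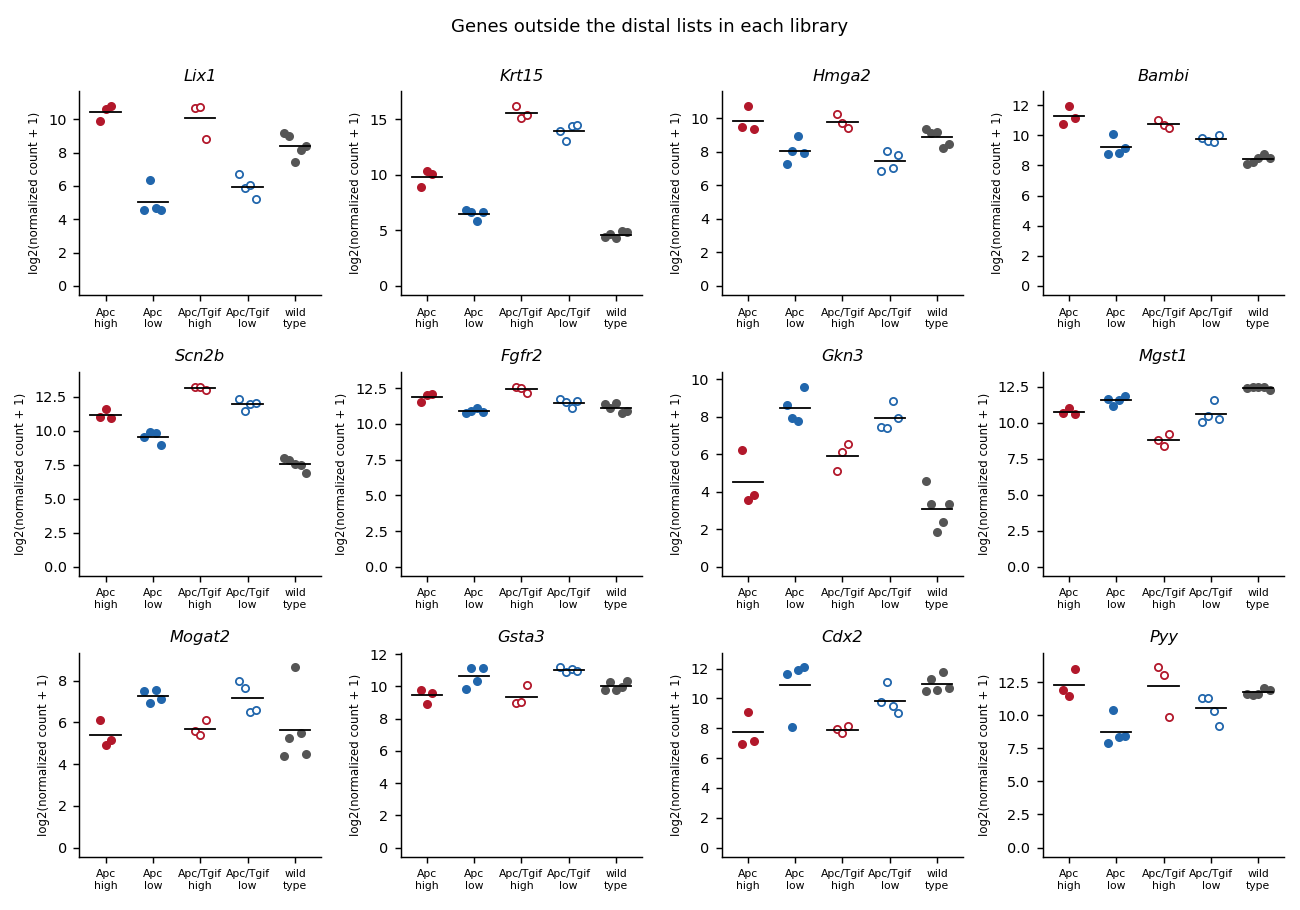
Level of 12 genes in each library, as log2(normalized count + 1), in high and low tumours of each genotype and in wild-type colon. Points are libraries and bars are means of log2 values. Lix1, Krt15, Hmga2, Bambi, Scn2b and Fgfr2 are higher in high tumours, Gkn3, Mgst1, Mogat2 and Gsta3 are lower, and Cdx2 and Pyy did not pass the threshold.

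The lowest named difference was that of Gkn3. This gene, a gastrokine of the stomach, had 72.5, 10.8 and 13.2 normalized counts in high and 389, 242, 217 and 772 in low Apc tumours. Among Apc/Tgif tumours it had 33.1, 67.9 and 91.7 in high and 176, 169, 462 and 245 in low tumours. All high tumours lay below all low tumours, and wild-type colon, with 22.7, 9.13, 2.61, 4.31 and 9.11, lay at or below the lower part of the high tumours. It fell by 3.00 (SE 0.524, limma adjusted p = 0.0309). Pgc, a pepsinogen, had 1.79 to 8.24 (median 3.5) in high and 4.68 to 61.2 (median 26.3) in low tumours, a difference of -2.32. No high tumour reached 10, so it passed the filter through the low tumours and its difference is a description only. Pdx1, a homeodomain factor of the duodenum and pancreas, had 1.65, 4.33 and 0 in high and 10.4, 8.53, 17.9 and 23.4 in low Apc tumours. Its values in the other genotype, Apc/Tgif, were 13.9, 23.2 and 90.7 in high and 211, 142, 146 and 111 in low tumours, and the classes were separated in each genotype. Its difference was -2.50, and as 3 high and 7 low tumours reached 10, it too passed the filter through the low tumours and is given as a description. Pgc was low in all tumours and was named after its values were seen. Cldn18, a gastric claudin, had 4.36 to 74.7 (median 12.4) and 34.2 to 168 (median 81.5), and its difference of -2.57 missed the threshold (limma adjusted p = 0.116).

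Cdx2, the homeodomain factor that sets intestinal identity, is the neighbour of Pdx1 on chromosome 5. It had 124, 541 and 137 normalized counts in high and 3132, 272, 3906 and 4311 in low Apc tumours, and 245, 199 and 279 in high and 877, 2145, 733 and 509.6 in low Apc/Tgif tumours. One low Apc tumour overlapped the high tumours. The difference of -2.66 missed the threshold (limma adjusted p = 0.116), and wild-type colon had 1431 to 3443 (median 1644). Its paralogue Cdx1 differed by 0.16. Over the 20 tested factors of intestinal identity, 10 were above 0 (median 0.034), and Pdx1 was the only one called. Of 15 tested genes of small intestine, 8 were above 0 (median 0.029) and none was called. Among them Reg3b, an antibacterial lectin, had 40.6 to 836 (median 286) in high and 53 to 19865 (median 4173) in low tumours (difference -2.96, limma adjusted p = 0.263). The summed level of the 24 listed genes was 6936 to 8919 in high and 17439 to 42358 in low Apc tumours, without overlap. In Apc/Tgif tumours the sum was 8174 to 8585 in high and 4976 to 21658 in low tumours, with overlap. It does not weigh the genes evenly.

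Mogat2, an enzyme of triglyceride resynthesis in the gut, had 68.4, 29.2 and 34.1 normalized counts in high and 182, 121, 187 and 140.3 in low Apc tumours. Its values in the other genotype, Apc/Tgif, were 47, 41.1 and 69 in high and 248, 197, 89.7 and 96.6 in low tumours, without overlap over all 14, and it fell by 1.60 (limma adjusted p = 0.02). Gsta3 and Mgst1, both glutathione transferases, fell by 1.44 and 1.35 (limma adjusted p = 0.0295 and 0.0439). Gsta3 had 484 to 1072 (median 657) in high and 933 to 2310.3 (median 2087) in low tumours, and as a member of a family of close copies its value is uncertain. Of 30 tested genes of xenobiotic metabolism 11 were above 0 (median -0.16), and Gsta3 was the one called member.

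Tpd52l1, a coiled-coil protein, had 6.24 to 150.0 (median 37.6) normalized counts in high and 29.6 to 691 (median 183) in low tumours and fell by 2.26 (limma adjusted p = 0.0295). Ociad2 had 469 to 1330.3 (median 747) and 1035 to 4804 (median 1594), with overlap in Apc tumours, and fell by 1.41 (limma adjusted p = 0.0314). Prom1, a membrane protein of crypt cells, and Fcho1, an endocytic protein, had differences of -0.87 and -0.57 that missed the threshold (limma adjusted p = 0.058 and 0.0742).

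Interferon-stimulated genes, which cells switch on in response to interferons, had no listed member past the threshold, while nearly all differences had 1 sign. Of 30 tested members, 29 had a difference above 0, 20 had an unadjusted p below 0.05 and 0 were called by limma. Over all genes counted, 50.2% were above 0 and 7.52% had an unadjusted p below 0.05. The median of the list was 0.93 beside 0.0011 over all genes. These genes are switched on together, so the shared sign is not 30 separate observations. Within Apc tumours 22 of 30 were above 0 (median 0.33), and within Apc/Tgif tumours all 30 were (median 1.42). Ifit2, which binds viral RNA, had 2247, 755 and 1037 normalized counts in high and 1131, 1427, 819 and 1006 in low Apc tumours. Among Apc/Tgif tumours it had 11871, 7586 and 7848 in high and 3894, 2021, 2062 and 2069 in low tumours. The Apc classes overlapped and the Apc/Tgif classes did not. Its difference over both was 1.14 (limma adjusted p = 0.167). Cmpk2, a mitochondrial nucleotide kinase, came nearest to the threshold, with 1.10 (limma adjusted p = 0.0681). The summed level of the list was 14479 to 36752 in high and 17664 to 21824 in low Apc tumours. Among Apc/Tgif tumours it was 88608 to 143684 and 35356 to 52963, without overlap, and in wild-type colon it spanned 22565 to 146034. The median of the list without Apc/Tgif replicate 5 was 0.97.

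Among the called genes, 4 that interferons are known to induce were not on that list and are named after their values were seen. They were picked from the called genes, and such genes outside the list that were not called were not counted. They are a description and no further test of the list. Parp9, a member of the PARP family, had 5406, 3657 and 3253 normalized counts in high and 2651, 3061, 2305 and 2529 in low Apc tumours. Apc/Tgif tumours had 7707, 8300.5 and 9496 in high and 3656, 4616, 3869.8 and 4369.9 in low tumours. The classes were separated within each genotype, and it rose by 0.85 (limma adjusted p = 0.0155). Dtx3l, its partner ubiquitin ligase, rose by 0.88, Parp14 by 0.96 and Sp110, a nuclear body protein, by 0.92 (limma adjusted p = 0.0192, 0.0295 and 0.0295). Parp9 (35938470 to 35972605, plus strand) and Dtx3l (35926511 to 35939151, minus strand) overlap on chromosome 16, so their reads cannot be told apart there if strand was not used in counting. Parp14 lies at 35832874 to 35871544 of the same chromosome.

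The interaction of class and genotype was called for 0 of the 17656 genes by limma, 0%, with 385 at an unadjusted p below 0.05. The 3 genes with the smallest p were Ifit2, Ifih1 and Xlr3b. Ifit2 differed by 0.31 in Apc and 1.97 in Apc/Tgif tumours (interaction, limma adjusted p = 1). Ifih1, a sensor of viral RNA, differed by 0.19 and 1.26 (interaction, limma adjusted p = 1). Xlr3b, an X-linked gene, had 108, 83.4 and 599 normalized counts in high and 14.1, 6.83, 17.9 and 1.61 in low Apc tumours, and 3.2, 8.04 and 53.9 in high and 35.9, 21.5, 845 and 1338 in low Apc/Tgif tumours. Its sign was opposite in the genotypes, 4.33 and -4.46, and no difference between them passed the threshold (interaction, limma adjusted p = 1).

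Markers of Paneth cells, the antimicrobial secretory cells of the small intestine, were below 0 in 17 of 17 tested members (median -1.04). None was called by limma, and 9 had an unadjusted p below 0.05, against 7.52% of all genes counted. Lyz1, a lysozyme, had 48655, 21596 and 13649 normalized counts in high and 34135, 52568, 96046 and 94058 in low Apc tumours, and 20740.1, 9217 and 5868 in high and 34246, 35573, 37117 and 8125 in low Apc/Tgif tumours. The classes overlapped in both genotypes, and the difference was -1.22 (limma adjusted p = 0.37). Mmp7, the protease that activates defensins and also a Wnt target, differed by -1.25 (limma adjusted p = 0.213). The summed level was 29648 to 114651 (median 53418) in high, 49452 to 203782 (median 120796) in low tumours and 10765 to 25437 (median 16068) in wild-type colon. Without Apc/Tgif replicate 5 the median was -0.91, and over the 14 left-out tumours it ran from -1.29 to -0.55. Defensins are near-identical copies, so their single values are uncertain and they are not independent members.

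Goblet cell genes, which make mucus, were below 0 in 17 of 21 members (median -0.28) with none called. Muc4, a membrane mucin, had 1291, 1463 and 1010.3 normalized counts in high and 7855, 2027, 6252 and 9289.6 in low Apc tumours. The Apc/Tgif values were 501, 1062 and 1108 in high and 1699, 887, 5207 and 1375 in low tumours, where the classes overlapped. The difference of -1.77 missed the threshold (limma adjusted p = 0.082), and Muc2, the main secreted mucin, differed by -1.13 (limma adjusted p = 0.464). Tuft cell genes were below 0 in 13 of 16 members (median -0.44), crypt base genes in 18 of 21 (median -0.18) and Wnt target genes in 22 of 28 (median -0.18), none of them called. By limma, 5 goblet, 4 tuft, 7 crypt base and 5 Wnt target genes had an unadjusted p below 0.05. Over all genes counted, 7.52% had such a p and 50.2% were above 0. The crypt base and Wnt target lists share members, such as Tnfrsf19, so they are not separate counts. Lgr5, the receptor that marks crypt base stem cells, had 1489 to 4459 (median 2792) in high and 3293 to 8209 (median 5040.5) in low tumours (difference -0.79, limma adjusted p = 0.316). Axin2, a feedback target of Wnt signalling, differed by -0.0094. Tnfrsf19, a receptor of crypt base cells, had 331 to 1887 (median 1302) and 1979 to 4452 (median 2722), separated over all 14 tumours, with a difference of -1.34 that missed the threshold (limma adjusted p = 0.159). Colonocyte genes were above 0 in 14 of 32 members (median -0.10), with none called. The genotypes differed in sign, with 8 members above 0 in Apc tumours (median -0.46) and 25 in Apc/Tgif tumours (median 0.18).

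Genes of the cell cycle were above 0 in 28 of 28 members with a small median of 0.31, and none was called or reached an unadjusted p below 0.05. Their summed level overlapped, with 68682 to 112423 (median 89969.7) in high and 24052 to 105790.0 (median 85521) in low tumours. These genes move together between libraries, so the shared sign is not 28 separate observations. Without Apc/Tgif replicate 5 the median was 0.42, and over the left-out tumours it ran from 0.08 to 0.42.

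**Figure D5:**
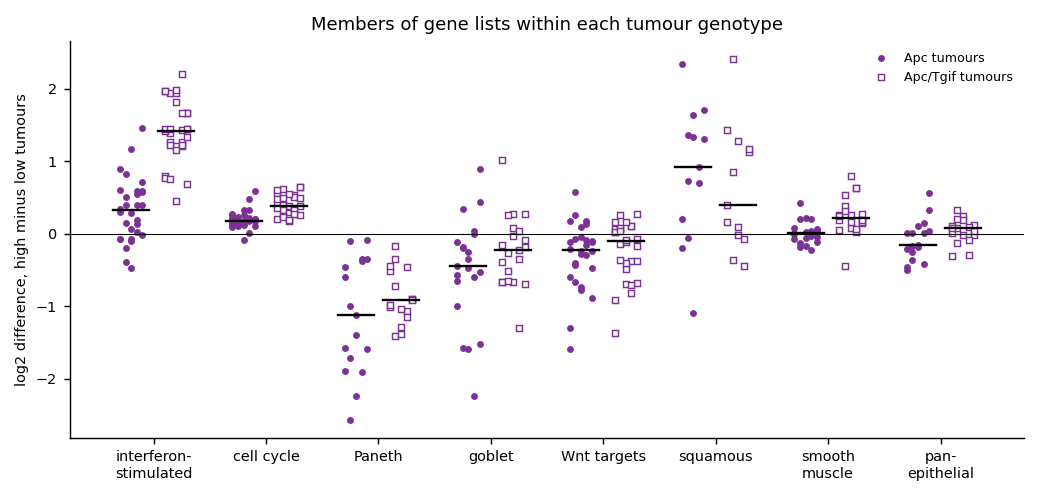
Log2 difference of high minus low tumours for each tested member of 8 gene lists, in Apc tumours (filled circles) and Apc/Tgif tumours (open squares). Bars are medians over members. Interferon-stimulated genes have medians of 0.33 and 1.42 in the 2 genotypes and Paneth genes of -1.12 and -0.92. Smooth muscle genes have medians of 0.0053 and 0.22, and pan-epithelial genes of -0.16 and 0.075.

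Markers of other cells that a dissected tumour can hold had no member called by limma in any of the lists below. The summed smooth muscle level was 51000.5 to 67856 in high and 45235 to 69224 in low tumours (median difference of the 20 members 0.10). In wild-type colon it was 327014 to 461789, several times that of any tumour. Of the 20 smooth muscle genes 17 were above 0, with 10 above 0 in Apc and 19 in Apc/Tgif tumours. Pan-epithelial markers summed to 383262 to 719869 in high and 417624 to 729755 in low tumours (median -0.017). Fibroblast genes had a median of -0.011, endothelial genes of -0.14, B and plasma cell genes of -0.30, T and NK cell genes of -0.071, macrophage and dendritic cell genes of 0.054, neutrophil genes of -0.34 and mast cell genes of -0.32. Endothelial genes were above 0 in 11 of 18 members in Apc tumours (median 0.081) and in 2 in Apc/Tgif tumours (median -0.42). Medians in Apc and Apc/Tgif tumours were -0.15 and -0.63 for neutrophil and -0.77 and 0.097 for mast cell genes. They were -0.30 and -0.30 for B and plasma cell and -0.12 and -0.022 for T and NK cell genes. Fibroblast genes had -0.054 and -0.025, and macrophage and dendritic cell genes 0.017 and 0.060. The 3 tested red cell genes summed to 31694 to 58281 in high and 7208 to 17525 in low Apc tumours, without overlap, and to 4671 to 19014 in high and 3693 to 32626 in low Apc/Tgif tumours, with overlap. The part of these cells in the called differences was tested only with a covariate for muscle, which gave 45 higher and 24 lower genes, and for epithelium, which gave 34 and 13.

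Wild-type colon took no part in the fit and gives a reference for the called genes. Of the 28 higher genes, 18 had a wild-type mean nearer to the mean of the high than of the low tumours, and of the 13 lower genes 9 did, against 51.7% of all genes counted. Examples were B4galnt3, with 1669.6 to 4112 (median 2941) normalized counts in wild-type colon, and Npy1r, with 359 to 1091 (median 607). Exceptions included Krt15 and Scn2b, with wild-type levels below all tumours, 119.6 to 249.8 (median 182) for Scn2b. Bcl2l15, Bambi and Isl1 were others, with wild-type means of 3.44, 344 and 124, nearer to the low tumours. The wild-type levels come from tissue of another composition and were not tested against the classes.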

How the data were processed

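RNA of 19 colon libraries, poly-A selected and read as single ends of 75 bases per the labels' protocols, was given as 1 table of 32694 gene symbols. The values are a signal: normalized counts that the authors deposited, made with Salmon and DESeq2 on GRCm38 (mm10) per the submitters' processing notes. Versions, and whether counting used strand, were not given in the sources used here. Whole reads were not recovered (83.1% to 86.6% of low values were whole within 0.1 of a step), so no count model was used. Totals correspond to about 28500000 to 49100000 counts per library, which limits the precision of values near 10.

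Genes with at least 10 normalized counts in 5 of the 14 tumours (17672) were fitted with limma 3.58.1 in R 4.3.3 on log2(value + 1), with an intensity trend, robust empirical Bayes and terms for class, genotype and sex. P-values are two-sided and Benjamini-Hochberg adjusted over all genes tested, with a threshold of 0.05. The 16 tested genes of the distal colon and posterior Hox lists stayed in the fit but carry no test and no count. The steps were tested on simulated data. Mice are separate animals. Replicate numbers were given in accession order and pair nothing.

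The members and lists were chosen with earlier results of these data known. Named genes are the distal list, Tgif1 and Tgif2, the 10 highest and 10 lowest differences that were called, averaged 100 normalized counts or more in the tumours and had classes separated in both genotypes (filled by other called genes, then by the smallest p), up to 3 members with the smallest p of a list described, and the 3 smallest p of the interaction. Axin2, Cdx1, Chga and Chgb were named outside this rule, after their values were seen, as were the genes said to be so in the text. Predicted and clone names, 5 of the 41 called genes, were left out, and some genes that the rule names are not reported here. Positions are from GENCODE for GRCm38 and matched 195 of 197 symbols. The alternatives changed the sex term, pseudocount, filter, scaling, moderation, weights, genotype, sex, class score and tissue covariates and left out each tumour.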

Additional observations from a re-analysis of the deposited data

Results flagged for a closer look

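One library total stood far from the others of its class. Apc/Tgif replicate 5, a low tumour, had a total of 43474139 normalized counts, while the other 7 low tumours lay between 34417808 and 38570268. The same library held 4063477 normalized counts of Rn45s. Of 98 groups of values examined in this way it was the only 1 to stand out, and chance alone gives about 1 in 20.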

How the results depend on the processing

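The counts of 28 higher and 13 lower genes moved with the tumours included. The differences of the followed genes stayed within 0.827 to 1.19 times their value when 1 tumour was left out. In other settings some differences moved more, such as that of Krt15 with 1.59 to 3.25. In Apc tumours alone 2 and 0 genes were called, in Apc/Tgif tumours alone 9 and 0, in males alone 2 and 0 and in females alone 0 and 0; these fits hold fewer tumours. A continuous score of the distal list in place of 2 classes gave 71 and 75, a smooth muscle covariate 45 and 24, and a fit without trend and robust step 21 and 8. Of the 41 calls, the continuous score kept 22 higher and 10 lower, and the muscle covariate 25 and 11. The cause was not tested. Leaving out 1 tumour gave 12 to 37 higher and 1 to 20 lower genes. Higher counts moved by over 1.5 times without Apc replicate 4 (14), Apc replicate 7 (16), Apc/Tgif replicate 3 (13), Apc/Tgif replicate 4 (12) and Apc/Tgif replicate 5 (18). Lower counts were 1 without Apc replicate 4, Apc/Tgif replicate 3 or Apc/Tgif replicate 4. They were 2 without Apc replicate 5, 3 without Apc replicate 1 or 7, 4 without Apc/Tgif replicate 5, 5 without Apc replicate 6, 6 without Apc/Tgif replicate 2, 7 without Apc/Tgif replicate 1 or 7, and 20 without Apc replicate 3. Removing the sex term, a pseudocount of 10, both other filters, both other scalings, quality weights and an epithelial covariate gave 22 to 34 higher and 9 to 13 lower. The interaction count stayed 0 in the settings run. Xlr3b, at -0.064, turned direction without the sex term (0.28), with quantile normalization (0.065), in Apc tumours alone (4.33), in females alone (0.27), with the continuous score (0.79) and with the muscle covariate (0.27), and ran from -1.02 to 0.75 over left-out tumours. The difference of library totals ran from -1767373 to -473611 over left-out tumours and was -2154167 in approximate counts, 2 settings chosen after seeing the data. No paired analysis was possible because the labels carry no replicate numbers. Depth limits low genes such as Hs3st5 and Pgc.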

Other observations

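Several gene lists not described above held at most 1 call by limma. Mucin glycosylation enzymes were above 0 in 14 of 33 members (median -0.19), and B4galnt3 was the 1 called. Its relative B4galnt2 differed by -2.01 and missed the threshold (limma adjusted p = 0.121). Foetal and regenerative genes were above 0 in 10 of 22 (median -0.14), with Krt15 as the 1 called member. Krt17, a keratin of stressed epithelium, differed the other way, by -1.81, and missed the threshold (limma adjusted p = 0.171). MHC class II genes were above 0 in 8 of 10 (median 0.38), cholesterol synthesis genes in 17 of 21 (median 0.10), retinoic acid genes in 11 of 23 (median -0.0042) and Eph and ephrin genes in 8 of 19 (median -0.012), with 0 called. Genes of hypoxia and glycolysis were above 0 in 5 of 23 (median -0.10), of the unfolded protein response in 7 of 20 (median -0.061) and of Wnt ligands and receptors in 15 of 34 (median -0.056), again with 0 called.

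Some differences were large and missed the threshold, and these genes were chosen after their values were seen. Krt35, a hair keratin, differed by 3.89 (SE 0.774, limma adjusted p = 0.0676) and Casp14, a caspase of cornified epithelium, by 3.68 (SE 0.774, limma adjusted p = 0.082). Trpv6, a calcium channel of absorptive epithelium, differed by 2.38 (limma adjusted p = 0.0982), and Cps1, the first enzyme of the urea cycle, by 3.38 (limma adjusted p = 0.115). Alb, albumin, differed by -2.74 (limma adjusted p = 0.357).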
